A study of Drosophila melanogaster with 3 samples.

Results

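The genes described here encode the proteins of the mitochondrial ribosome of Drosophila melanogaster, taken as every protein-coding gene whose annotated symbol begins with mRpL or mRpS. The rule found 73 of the 13945 protein-coding genes on the chromosome arms, 47 for the large subunit and 26 for the small subunit. Genes for such proteins under other names, for example tko and bonsai, fall outside it. The values come from chromatin immunoprecipitation sequencing (ChIP-seq) of CG17359, for which chromatin bound by the protein was recovered and sequenced. The single group was 3 biological replicates of whole embryos aged 0 to 14 h from a transgenic line with green fluorescent protein (GFP) joined to the C-terminus of CG17359, and the antibody was against GFP. All replicates were compared with 1 shared control, no second condition or untagged strain was analysed, and a whole-embryo sample does not say in which cells the protein was bound. The 5 deposited peak lists were 1 for each replicate and 1 for the replicates pooled, with 30000 peaks each, and a thresholded list of 7287 peaks. These lists carry no read counts, so the depth behind each value is unknown.

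Mitochondrial ribosomes translate the few messenger RNAs that the mitochondrial genome encodes, which specify core subunits of the respiratory chain and ATP synthase. Their ribosomal RNAs are also made in the mitochondrion, but every one of their proteins is encoded in the nucleus, made in the cytoplasm and imported. Some of these proteins have counterparts in bacterial ribosomes, and others were added during the evolution of mitochondria. Their genes are widely expressed, and many lie head to head with another gene, with both start sites in a shared upstream region.

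CG17359 peaks marked the start sites of a minority of these genes, including some of the strongest peaks in the genome. A gene was counted as occupied if a peak summit, the base of highest signal, lay within 500 bp of any of its annotated start sites. By that rule 26 of the 73 members were occupied in the thresholded list, 35.6% with an exact 95% binomial interval of 24.7 to 47.7%, beside a background of 23.9% of protein-coding genes. The interval covers only the counting of genes. To give a spread over samples, the 7287 strongest peaks were taken from each replicate. Replicates 1, 2 and 3 then gave 29, 27 and 28 occupied members, 38.4% ± 1.37 (SD, n = 3), beside 24.4% ± 0.511 of protein-coding genes. The members' share was above that of all protein-coding genes in each replicate, by 15.3, 12.2 and 14.5 percentage points. That difference was 14.0 ± 1.63 percentage points. The same 73 genes are scored in every replicate, so this spread shows only how well the peak lists repeat. It does not measure how far the family stands from other genes. In all 3 replicates at once, 21 members (28.8%) were occupied, beside 18.5% of protein-coding genes. The pooled list, which reaches weaker peaks, marked 51 members (69.9%) beside 46.8%.

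The members were also placed near the top of the list. Within the 300 strongest thresholded peaks lay the peaks of 6 members, 8.22% (95% interval 3.08 to 17.0%), beside 1.63% of protein-coding genes. Of these, mRpL41, mRpS10 and mRpS23 ranked within the first 20. The typical occupied member did not stand higher than other occupied genes: the median signal value was 442.7 over the 26 members and 449.8 over all 3326 occupied protein-coding genes. Signal values are the authors' own and are compared here only within a list.

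**Figure D1:**
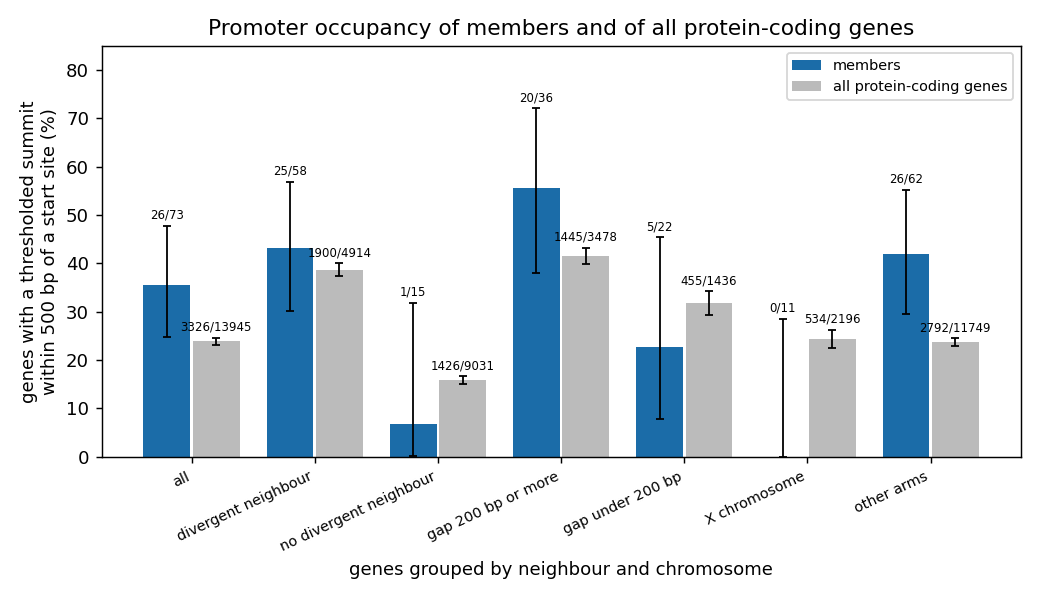
Share of genes with a thresholded summit within 500 bp of a start site, for the members (blue) and all protein-coding genes (grey), grouped by divergent neighbour, by the gap to it and by chromosome. Bars start at 0, whiskers are exact 95% binomial intervals over genes, and the numbers are genes occupied of genes counted; 26 of 73 members were occupied, 20 of 36 with a gap of 200 bp or more and 0 of 11 on the X chromosome.

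The 10 strongest members are given first, by subunit. Among proteins of the small subunit with bacterial counterparts, mRpS10 had its peak at chr3R:15229324-15229741, between its own start site and that of the arginine methyltransferase gene Art3. Its signal value was 1567, 2098 and 2581 in replicates 1, 2 and 3 and 6216 in the thresholded list, where it ranked 8. It held rank 8 in each replicate as well. The mRpS2 peak at chr2L:4850348-4850738 lay in the region shared with Mon1, a gene of the endosomal Rab7 pathway. Its signal value was 619.0, 622.8 and 883.1 in the replicates and 2130 in the thresholded list (rank 212). The mRpS6 peak at chr3L:4364328-4364599 lay between mRpS6 and Cip4, which encodes a membrane-bending protein, and ranked 1535. Its signal value was 191.3, 201.3 and 319.0 in the replicates and 729.8 in the thresholded list, so it was well below the peaks of mRpS10 and mRpS2 in every list.

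Of the small subunit proteins that bacteria lack, mRpS23 had the strongest peak, at chr2L:13835260-13835663. Its signal value was 1371, 2001 and 2329 in replicates 1, 2 and 3 and 5688 in the thresholded list (rank 12). The summit lay 394 bp upstream of mRpS23 but 98 bp from the start site of its neighbour CenG1A, a gene for a GTPase-activating protein of the Arf family. It was nearer the neighbour in every replicate, at 381, 396 and 394 bp from mRpS23 in replicates 1, 2 and 3.

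In the large subunit, mRpL41, a protein without a bacterial counterpart, had the strongest peak of all members, at chr2R:15217535-15217991. Its signal value was 1903, 2489 and 3256 in the replicates and 7614 in the thresholded list, and its rank was 5, 4 and 5 in the replicates and 5 in the thresholded list. Its divergent neighbour CG8079 starts 762 bp away, the longest gap among occupied members, and the summit lay 138 bp from mRpL41. This was the only occupied member with a divergent neighbour whose summit was more than 500 bp from the neighbour's start site. The peak at mRpL23, whose bacterial counterpart sits near the exit of the peptide tunnel, was at chr3L:2373415-2373792 (rank 58). Its signal value was 887.1, 1133 and 1524 in the replicates and 3544 in the thresholded list. It was the only occupied member whose summit was downstream of the start site, in a non-coding exon of mRpL23. The distance was 72 bp from the nearest of its 3 annotated start sites, and 87, 71 and 73 bp in replicates 1, 2 and 3.

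The mRpL24 peak at chr2L:4945312-4945643, shared with the prenyltransferase subunit gene betaggt-I, had signal values of 587.7, 621.8 and 873.2 in the replicates and 2049 in the thresholded list (rank 230). The mRpL20 peak at chr3L:13017988-13018307 lay between mRpL20 and Icmt, the gene of a methyltransferase that modifies prenylated proteins. Its values were 324.6, 381.8 and 492.3 in the replicates and 1211 in the thresholded list (rank 654). The remaining members of the first 10 were about as strong as mRpS6. The mRpL32 peak at chr3R:31252648-31252857, shared with qless, a gene of coenzyme Q synthesis, had values of 166.6, 231.8 and 252.8 in the replicates and 670.8 in the thresholded list (rank 1756). The mRpL34 peak at chr2R:16098664-16098855, shared with the dystroglycan gene Dg, had values of 158.8, 185.6 and 255.8 in the replicates and 608.4 in the thresholded list (rank 2039). All 10 were among the 7287 strongest peaks of every replicate.

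The other 16 occupied members ranked from 2465 to 7143. In the small subunit they were mRpS7, mRpS26, mRpS24, mRpS18B, mRpS29 (a GTP-binding protein known in mammals for a part in cell death), mRpS16, mRpS22, mRpS21 and mRpS11. In the large subunit they were mRpL37, mRpL54, mRpL53, mRpL11 (at the stalk base, where translation factors bind), mRpL19, mRpL39 and mRpL43. Of the 26 occupied members, 5 were not among the strongest peaks of every replicate, namely mRpL39, mRpL43, mRpS11, mRpS21 and mRpS29. For 4 of these the weak replicate was a single one. For mRpL43 the rank was 5091 and 5649 in replicates 1 and 3 but 26376 in replicate 2. For mRpS21 it was 5439 and 6361 in replicates 1 and 3 but 14624 in replicate 2, where mRpS29 also ranked low, at 9233. The weakest occupied member, mRpS11, had a signal value of 214.9 in the thresholded list, and in the replicates it ranked 21234, 5027 and 7756. Just outside the threshold, mRpL47 had a pooled signal value of 209.0 (pooled rank 7366), so the members on either side of the limit differed little.

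**Figure D2:**
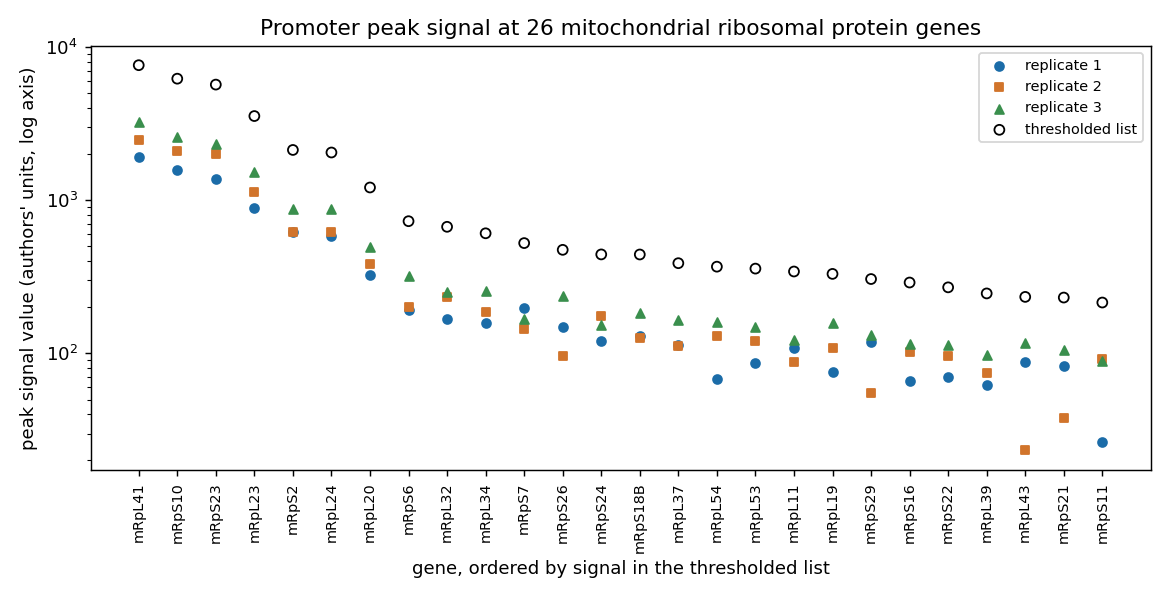
Signal value of the promoter peak (authors' units, log axis) at each of the 26 occupied members in replicates 1, 2 and 3 and in the thresholded list, ordered by the thresholded value. The 4 strongest members, from mRpL41 at 7614 to mRpL23 at 3544 in the thresholded list, stand above the rest in every replicate, and replicates spread most at the weak end.

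By subunit, 13 of the 26 small subunit genes were occupied (50%, 95% interval 29.9 to 70.1%) and 13 of the 47 large subunit genes (27.7%, 15.6 to 42.6%), beside 23.9% of protein-coding genes. The large subunit share was near that background. The intervals of the subunits overlap, and the difference was not tested. Each replicate's strongest peaks marked 12 of the small subunit genes (46.2%). They marked 17, 15 and 16 of the large subunit genes (36.2, 31.9 and 34.0%) in replicates 1, 2 and 3, beside 24.4, 24.8 and 23.8% of protein-coding genes. The share was nearly the same for proteins with and without a bacterial number. Of the members numbered within the bacterial series, 15 of 42 were occupied (35.7%), and of those numbered beyond it 11 of 31 (35.5%), beside the same 23.9%.

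Nearly every occupied member shared its upstream region with a gene transcribed the other way. A divergent neighbour was counted where another protein-coding gene on the opposite strand starts within 1000 bp upstream. Such a neighbour was found for 58 of the 73 members (79.5%), beside 35.2% of all protein-coding genes, so head-to-head arrangement is common in this gene family whatever its occupancy. Of the occupied members 25 of 26 had one (96.2%, 95% interval 80.4 to 99.9%), mRpL19 being the exception. Over all occupied protein-coding genes the share was 57.1%, and over the 47 unoccupied members it was 70.2%. Read the other way, 25 of 58 members with a divergent neighbour were occupied (43.1%, 30.2 to 56.8%), beside 38.7% of protein-coding genes so arranged. That share is near its background. Without such a neighbour 1 of 15 members was occupied (6.67%, 0.169 to 31.9%), beside 15.8%.

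Where a member and its neighbour share a peak, the lists do not tell which of them the binding concerns. Beside the neighbours already named, the peaks were shared with the mitotic kinase gene Cdk1 (at mRpS7), the Wnt pathway gene Apc2 (mRpS24), Kua (mRpS18B) and CG15653 (mRpL54). Further neighbours were the microRNA pathway gene AGO1 (mRpL53), the mitochondrial protease gene HtrA2 (mRpL11), the DNA repair gene rad50 (mRpS29), the zinc finger gene cg (mRpS16), CG5003 (mRpS22), the proteasome subunit gene Prosbeta2 (mRpL39), CG30183 (mRpL43), the chaperone gene Droj2 (mRpS21), the nucleostemin family gene Ns1 (mRpS11) and CG13698 (mRpS26). The members had 26 distinct peaks, so none of these counts comes from one peak counted again at another member.

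Summits lay between the start sites rather than on them. The median distance from an occupied member's start site was 138 bp, beside 143 bp over all occupied protein-coding genes, and in the replicates it was 144, 112 and 138 bp, 132 ± 17.1 bp (SD, n = 3). The summit was upstream in 25 of 26 members (96.2%), beside 82.4% of occupied protein-coding genes. In 23 of the 25 members with a divergent neighbour it fell inside the gap between the start sites (92.0%, 74.0 to 99.0%), beside 73.2% of occupied protein-coding genes with such a neighbour. The exceptions were mRpL11 and mRpL23. Within the gap the median position was 51.8% of the way from the member to its neighbour, which is close to the midpoint, and the summit was nearer the neighbour in 14 of 25. The summits of 23 of the 26 members lay outside annotated genes, and the others fell in a non-coding exon of mRpL23, a non-coding exon of HtrA2 (mRpL11) and an intron of AGO1 (mRpL53). Across replicates the SD of a member's summit position had a median of 18.5 bp, from 2.1 bp at mRpS11 to 73.7 bp at mRpS22.

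**Figure D3:**
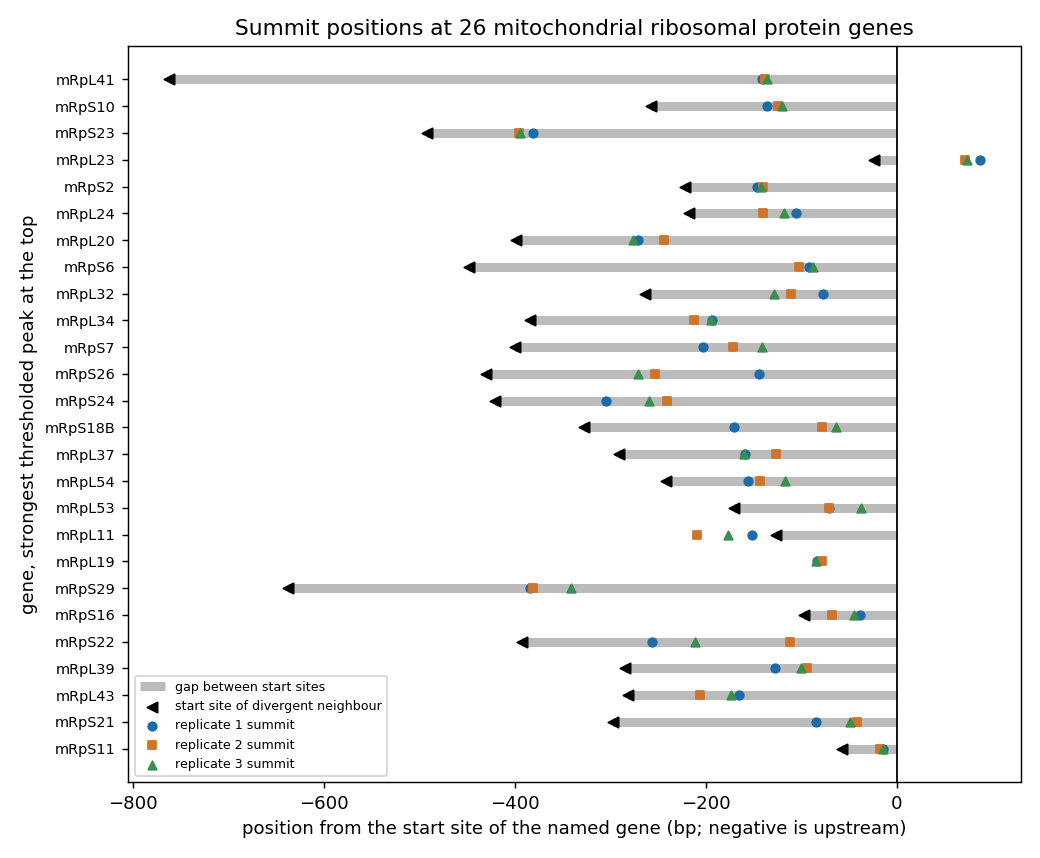
Position of the summit in replicates 1, 2 and 3 relative to the nearest annotated start site of each of the 26 occupied members (0; negative is upstream, in bp). The gap is measured from the most upstream start site, which at mRpL23 is not the nearest to the summit. Grey bars span the gap to the start site of the divergent neighbour (black triangles); thresholded summits fell inside the gap in 23 of 25 members, mRpL23 is downstream, and mRpL19 has no divergent neighbour within 1000 bp.

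The sequence of these shared regions is shown for strongly occupied members with long gaps and for short gaps of occupied and unoccupied members, because they show what the summits lie in. Each runs from the base after the neighbour's start site to the base before the member's, on the strand of the mRp gene, 5′ to 3′, in Release 6 coordinates of the reference genome, and holds no annotated exon. Capitals mark runs of at least 8 bases made only of A and T. The long gaps of the occupied mRpS10 (chr3R:15229409-15229664, plus strand), mRpS2 (chr2L:4850420-4850640, minus strand) and mRpL24 (chr2L:4945362-4945578, minus strand) are 30.1, 28.1 and 28.6% G+C.
mRpS10 and Art3: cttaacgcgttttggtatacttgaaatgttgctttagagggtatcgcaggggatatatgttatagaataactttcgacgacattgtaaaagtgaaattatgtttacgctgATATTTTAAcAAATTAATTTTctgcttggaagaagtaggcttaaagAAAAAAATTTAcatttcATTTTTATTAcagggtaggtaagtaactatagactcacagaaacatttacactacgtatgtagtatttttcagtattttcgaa
mRpS2 and Mon1: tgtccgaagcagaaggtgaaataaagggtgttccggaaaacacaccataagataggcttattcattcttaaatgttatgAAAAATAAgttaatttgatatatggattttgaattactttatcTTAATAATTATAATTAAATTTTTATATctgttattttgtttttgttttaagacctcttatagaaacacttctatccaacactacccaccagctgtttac
mRpL24 and betaggt-I: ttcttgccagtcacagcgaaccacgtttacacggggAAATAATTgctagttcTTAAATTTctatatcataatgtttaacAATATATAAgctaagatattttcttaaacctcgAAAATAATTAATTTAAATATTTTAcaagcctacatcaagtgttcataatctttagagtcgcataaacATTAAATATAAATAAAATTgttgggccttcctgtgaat
The thresholded summit is base 124 of the mRpS10 sequence, inside an A/T run. It is base 79 of the mRpS2 sequence and base 92 of the mRpL24 sequence, which lie outside such runs. Short gaps were of both kinds. Those of the occupied mRpS11 (chr3R:17072676-17072731, plus strand) and the unoccupied mRpL48 (chr2L:1710422-1710461, plus strand) hold no such run and are 57.1 and 62.5% G+C.
mRpS11 and Ns1: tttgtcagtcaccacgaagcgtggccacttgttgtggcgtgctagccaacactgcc
mRpL48 and CG17660: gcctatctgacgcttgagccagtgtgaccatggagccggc
The gaps of mRpL27 (chr2L:4459639-4459728, minus strand) and mRpS18A (chr3R:8562594-8562672, minus strand), also unoccupied, hold 3 such runs each, and that of mRpS18A is 27.8% G+C.
mRpL27 and CG15435: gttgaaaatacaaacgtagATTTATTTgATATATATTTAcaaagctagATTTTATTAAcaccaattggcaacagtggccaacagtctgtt
mRpS18A and CG31460: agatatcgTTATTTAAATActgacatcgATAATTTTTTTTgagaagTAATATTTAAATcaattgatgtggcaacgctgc
Of the members' gaps that could be read in this way, the 15 shorter than 200 bp had a median of 40.8% G+C, from 27.8 to 62.5%, and 3 of them held such a run. The 9 of 200 bp or more had a median of 30.1%, and all 9 held one. These 9 are from 218 to 297 bp long and are only part of the 36 members' gaps of 200 bp or more. A longer sequence has more room for such a run, so the counts of gaps with a run are not a comparison at equal length.

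Occupied members were the lower in G+C over the whole family. In the 101 bases around the summit the median G+C was 28.7% over the 26 occupied members, beside 31.7% over all occupied protein-coding genes. In the 250 bases upstream of the start site it was 30% for occupied and 34.0% for unoccupied members, beside 37.2% for protein-coding genes. Over all protein-coding genes the order was the same, with 35.6% for occupied and 37.6% for unoccupied ones. The range among occupied members was wide, and mRpL53 had 58.4% and mRpS16 53.5% around the summit. The longest A/T run in the promoter window had a median of 15 bases in occupied and 14 in unoccupied members, so run length alone set them little apart.

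Among the 25 occupied members with a divergent neighbour, 20 had a gap of 200 bp or more. That is near the background, 1445 of the 1900 occupied protein-coding genes so arranged. The gap had a median of 291 bp in the 25 occupied members and 192 bp in the 33 unoccupied ones, beside 300 bp over all protein-coding genes with a divergent neighbour. Splitting at 200 bp, a limit chosen after the values were seen, 20 of 36 members with the longer gap were occupied (55.6%, 95% interval 38.1 to 72.1%), beside a background of 41.5%. With the shorter gap 5 of 22 were occupied (22.7%, 7.82 to 45.4%), beside 31.7%. The higher share lay in gaps of 200 to 300 bp, with 9 of 11 (81.8%, 48.2 to 97.7%, a bin of few genes) beside 50.6%. From 300 to 1000 bp it was 11 of 25 (44.0%, 24.4 to 65.1%) beside 37.8%, which is near the background. The occupied members with a short gap were mRpL11, mRpL23, mRpL53, mRpS11 and mRpS16. The strongest peaks of the replicates gave 58.3, 52.8 and 58.3% at the longer gap, 56.5% ± 3.21 (SD, n = 3), and 27.3% in each replicate at the shorter one. In the pooled list, which adds weaker peaks, the order over all arms was the other way. It marked 26 of 36 members with the longer gap (72.2%, beside 66.6%) and 17 of 22 with the shorter gap (77.3%, beside 59.1%). Without the X chromosome, a choice made after the values were seen, the pooled list had the same order as the thresholded one. It then marked 25 of 28 with the longer gap (89.3%, beside 65.5%) and 17 of 21 with the shorter gap (81%, beside 56.3%). Among the gaps whose sequence was read, short ones had the higher median G+C but overlapped the long ones. The part of base composition in the contrast was not tested.

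**Figure D4:**
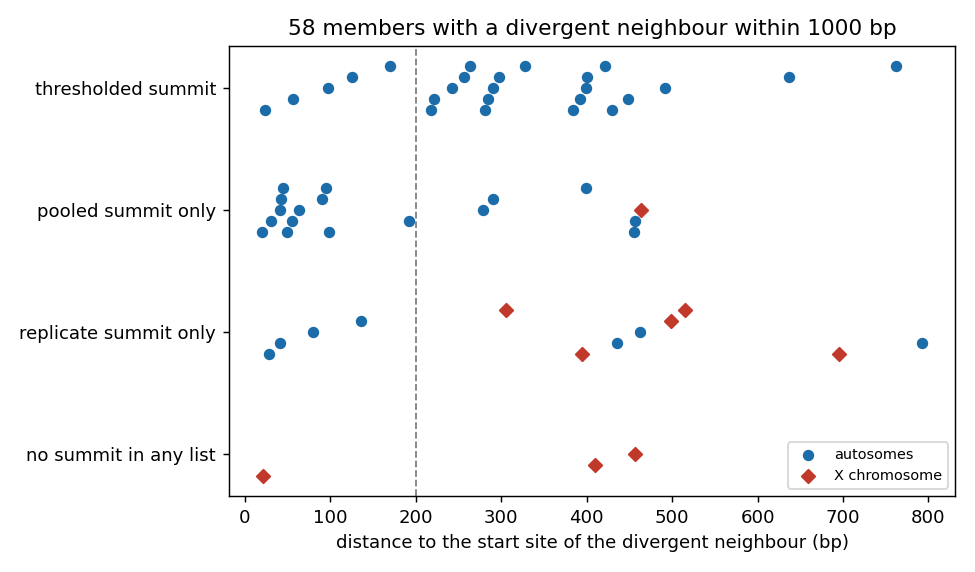
Distance (bp) from each member's start site to that of its divergent neighbour, for the 58 members with such a neighbour, in rows by the most stringent list that holds a summit within 500 bp. Red diamonds are members on the X chromosome, and the dashed line is at 200 bp. Of the 25 members with a thresholded summit, 20 lie to its right, beside 1445 of 1900 occupied protein-coding genes with a divergent neighbour. None of the 25 is on the X chromosome.

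No member on the X chromosome was occupied. The 11 members there are mRpL3, mRpL14, mRpL16, mRpL22, mRpL30, mRpL33, mRpL38, mRpL49, mRpS14, mRpS25 and mRpS30, and they were first looked at together after the values were seen. The thresholded list held a summit at 0 of 11, for which the exact 95% interval reaches 28.5%, beside 24.3% of X-linked protein-coding genes. The background lies inside that interval, so in this list 11 genes are too few to set the members apart from other X-linked genes. The strongest peaks of each replicate also held 0 of 11. The pooled list had weak summits at mRpL49 (signal value 91.6, rank 17086) and mRpS30 (61.2, rank 25660). That is 2 of 11 (18.2%, 2.28 to 51.8%) beside 55.5% of X-linked genes, which lies just above the interval. Because the group was formed after the values were seen, this interval cannot show a difference. The count also followed the window, with pooled summits at 0 members within 250 bp and at 6 within 1000 bp. The whole replicate lists were near their background: they held summits at 6, 5 and 5 of the 11 (54.5, 45.5 and 45.5%) in replicates 1, 2 and 3, beside 53.5, 55.2 and 54.8% of X-linked genes. Of the 11, 8 have a gap of 200 bp or more, and 0 of those 8 was occupied (interval up to 36.9%), beside 34.7% of X-linked genes with such a gap. On the other arms 26 of 62 members were occupied (41.9%, 29.5 to 55.2%), beside 23.8% of protein-coding genes. There, 20 of 28 with a gap of 200 bp or more were occupied (71.4%, 51.3 to 86.8%), beside 42.8%, and 5 of 21 with a shorter gap (23.8%, 8.22 to 47.2%), beside 31.5%. The X chromosome was left out, and the 200 bp limit set, after the values were seen. The intervals for the other arms, like those for the X chromosome, therefore cannot show a difference from the background. With the X chromosome included, the longer gap had 20 of 36 (55.6%, 38.1 to 72.1%) beside 41.5%, which lies inside that interval.

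Members without a thresholded peak fell into grades. In all, 67 of 73 members had a summit in at least 1 of the 5 lists (91.8%, 83.0 to 96.9%), beside 59% of protein-coding genes. Over all protein-coding genes, 23.9% had a thresholded summit and 46.8% a pooled one. A pooled but no thresholded summit was found at 25 members, with a median pooled signal value of 123.8 and a median pooled rank of 12599. All of these also had summits in replicate lists. A summit in at least 1 replicate list but not in the pooled list was found at 16 members. In none of the 5 lists did a summit lie within 500 bp of mRpL30, mRpL38, mRpL40, mRpL45, mRpS14 or mRpS9. Of these 6, mRpL30, mRpL38 and mRpS14 are on the X chromosome and the others on 3R.

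The promoters of the family were searched on both strands for known core promoter elements, from 250 bp upstream to 50 bp downstream of the start site. The E-box CAGCTG was found in 40 of 73 members (54.8%), beside 17.7% of all protein-coding promoters and 21.9% of those with a divergent neighbour. It was about as frequent in other genes of mitochondrial translation, at 5 of 9 translation factor genes (55.6%) and 7 of 15 aminoacyl-tRNA synthetase genes (46.7%). It was as common in occupied members (14 of 26, 53.8%) as in unoccupied ones (26 of 47, 55.3%). The DNA replication-related element (DRE), TATCGATA, was found in 15 of 73 members (20.5%), beside 9.36%. It was present in 7 of 26 occupied and 8 of 47 unoccupied members. The Motif 1 core GGTCACAC was found in 8 members, 11.0% beside 7.70%. The TATA box letters, TATAAA, were found in 34, 46.6% beside 45.8%. A pyrimidine stretch like that of the TCT initiator, which is typical of cytoplasmic ribosomal protein genes, was found in 9, 12.3% beside 24.2%. Matches were taken on either strand anywhere in the window, so they do not show a working TATA box or TCT initiator.

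The E-box and the DRE lay close to the start sites of the members. The E-box nearest a member's start site had a median position of 4 bp downstream, where it was 46 bp upstream over all protein-coding genes that hold one. Within 50 bp of the summit 0 of 26 occupied members held an E-box, beside 4.42% of occupied protein-coding genes, and 0 of 26 held a DRE, beside 3.04%. With backgrounds this low, a count of 0 in 26 cannot show whether there is a difference. The letters TATAAA lay within 50 bp of the summit in 5 of 26, 19.2% beside 23.5%. In the 18 occupied members with an E-box within 500 bp of the summit, the nearest was at a median of 117 bp, from 86.5 to 487.5 bp, beside a median of 170.5 bp over occupied protein-coding genes. Within 200 bp of the summit 13 of 26 held one (50%), beside 27.2%. The mRpS2 sequence printed above shows this order, with the A/T-rich stretch at the summit and CAGCTG close to the mRpS2 start site. No match within a window says only that these letters are absent there.

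**Figure D5:**
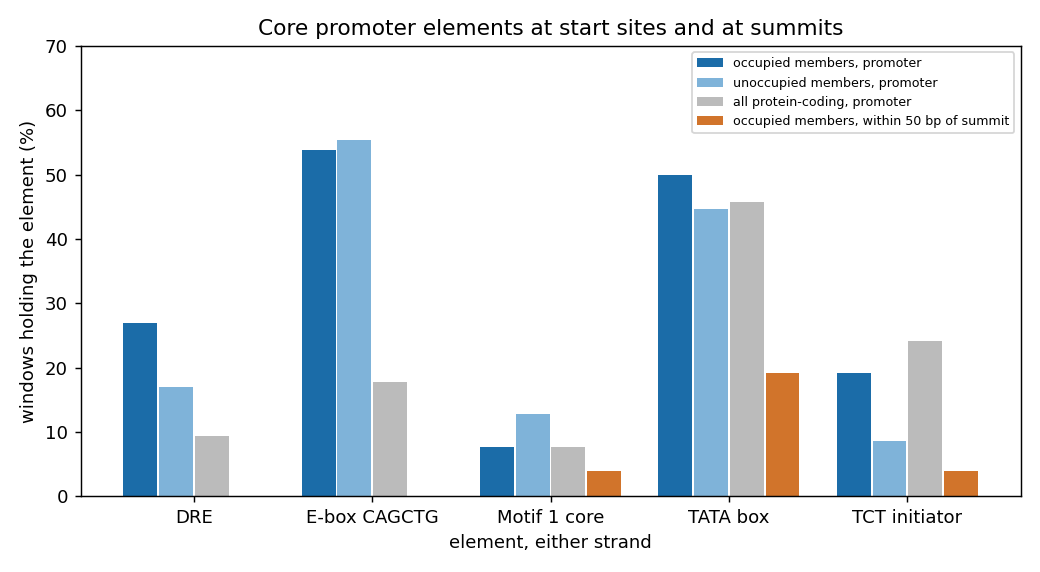
Share of windows (%) that hold a match to the letters of each core promoter element, on either strand and at any position, in the promoter window (250 bp upstream to 50 bp downstream) of occupied members, unoccupied members and all protein-coding genes, and within 50 bp of the summit of occupied members. The E-box was found in 53.8% of occupied and 55.3% of unoccupied member promoters beside 17.7% of all promoters, and in 0 of 26 summit windows, as was the DRE.

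Other gene groups of mitochondrial gene expression are set beside the ribosomal proteins here, against the 23.9% of all protein-coding genes. Of 9 translation factor genes 5 were occupied, led by the elongation factor mEFG1 (signal value 2334), the initiation factor mIF2 (1663) and the recycling factor mRRF1 (670.5). Of 15 mitochondrial aminoacyl-tRNA synthetase genes 3 were occupied, CysRS-m (370.4), ArgRS-m (289.9) and SerRS-m (255.6). Of 15 genes for mitochondrial DNA maintenance and RNA 5 were occupied, led by the RNA-degrading enzyme PNPase (5824), SLIRP2 (2740) and the single-stranded DNA-binding protein mtSSB (1400). Import genes had 3 of 14, Tom7 (822.5), Tim10 (269.0) and ttm50 (256.7). Nuclear genes of oxidative phosphorylation had 23 of 87 (26.4%), led by the complex I subunits ND-ASHI (1553), ND-MWFE (1042) and ND-24 (831.0). The shares of the synthetase, import and oxidative phosphorylation genes were near that background. The intervals of all 5 lists overlap that of the ribosomal proteins, and differences between them were not tested.

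The cytoplasmic ribosomal protein genes, matched by symbol and so including like-named relatives, had a higher share of occupied genes and summits closer to the start site than the mitochondrial ones. Of 92 such genes 73 were occupied (79.3%, 69.6 to 87.1%), an interval that does not overlap the 24.7 to 47.7% of the members. Their strongest peaks were at RpL19 (2513), RpS27 (2094) and RpL7 (1934), below those of mRpL41, mRpS10, mRpS23 and mRpL23. Their summits had a median distance of 25 bp from the start site, where the members had 138 bp. A divergent neighbour was found for 59.8% of them, and for 79.5% of the members. An E-box lay in the promoter of 9 of the 92 (9.78%).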

How the data were processed

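Per the labels, the 3 biological replicates were mapped to dm6, which is Release 6, after their chromatin had been sonicated. The authors deposited narrowPeak lists, with a signal value and a -log10 q for each peak. Per the deposited text files, a replicate list came from its own alignments and 1 shared control, the pooled list from all 3 alignments, and the thresholded list from these lists. Which aligner, peak caller and threshold were used is not stated in the labels or files read here. The replicate and pooled lists each stop at 30000 peaks, and the thresholded peaks are the 7287 strongest pooled ones. The signal values were used only to rank peaks within a list, and the -log10 q values, 3.65 to 4.12 in the thresholded list, were not used to filter. No read counts are held, so depth is unknown and intervals cover the counting of genes only.

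Genes and start sites came from Ensembl release 115 (BDGP6.54), and sequence from the Release 6 reference genome. The lists were read with Python 3.11.15, numpy 2.4.6 and scipy 1.17.1, and figures drawn with matplotlib 3.10.9. With 1 group there was no test between conditions. Counts stand beside those over all protein-coding genes, with exact Clopper-Pearson intervals at 95%. Spreads are SDs over the replicates, from the 7287 strongest peaks of each. The gap was the distance between the most upstream start site of a member and the nearest divergent start site. The bacterial series was taken as protein numbers up to 36 for the large and 21 for the small subunit. The steps that find summit offsets, gaps to a divergent neighbour and overlapping peaks were tested on simulated data. Every occupied member is named, the 10 strongest with values, the 3 strongest occupied genes of every other list, and members with no summit, except that 1 divergent neighbour and 1 sequence are not reported here. Members, lists and rules were chosen with earlier results of these data known. Alternatives covered the window, the neighbour distance, the peak list, the element window and each replicate left out in turn.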

Additional observations from a re-analysis of the deposited data

How the results depend on the processing

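Of 62 settings tried over the counts, shares and medians, 49 left the value within its limit and 13 moved it. None was marked as turning a direction, but most of these values are single counts or medians, which have no direction to turn. The order of long and short gaps was the other way in the pooled list with the X chromosome included, but not without it. That list was not tried for the gaps among these settings. The number of occupied members followed the list taken, at 51 in all pooled peaks and 58 in the whole list of each replicate; it was 22 to 24 with a replicate left out, that is, among the strongest peaks of both others. The divergent share of occupied members was 88.5% with neighbours within 500 bp, and 91.3 to 95.8% with a replicate left out. Members occupied in all 3 replicates, 21 on the strongest peaks, were 45 on whole lists and 10 on the strongest 3000 peaks of each. A DRE lay near the summit of 3 occupied members within 100 bp and 5 within 200 bp. On the X chromosome a 1000 bp window gave 3 occupied members, and pooled summits numbered 0 at 250 bp and 6 at 1000 bp; the settings for the gap and the X chromosome were chosen after seeing the data. The longer windows take in more sequence by construction. No paired analysis was possible because there is a single group. With 3 samples and lists limited to a fixed number of peaks, a peak can be absent because it ranked too low; for mRpL4 and mRpL10, described below, the cause was not tested.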

Other observations

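At mRpL4 and mRpL10 the replicates disagreed in a way that the thresholded list does not show. The mRpL4 promoter had a summit ranked 3225 in replicate 1 and 3338 in replicate 2, 121 and 94 bp upstream of the start site, and no summit in replicate 3 or in the pooled list. The mRpL10 promoter had one ranked 3320 in replicate 1 and 3950 in replicate 2, again with none in replicate 3 or in the pooled list. Both genes are on 2L. Over the genome, 83 of the 5829 peaks that were among the strongest of both replicates 1 and 2 had no summit of replicate 3 within 500 bp, and 40 of them had none in the pooled list. The same count with replicate 1 as the missing one was 68 of 5816, 31 of them also without a pooled summit, and with replicate 2 it was 39 of 5997 and 17. These peaks were looked for after the values were seen, and their cause was not tested.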
